A study of Drosophila melanogaster with 2 samples.

Results

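The regions described here are 270 peaks of the Drosophila transcription factor Crc (cryptocephal) that lie between genes. They were taken from 2420 peaks that passed the authors' reproducibility filter, of which they make up 11.2%. A peak was kept when its summit, the base of highest enrichment given in the peak list, lay in no annotated gene and more than 500 bp from the start of every protein-coding transcript. Transposable elements were not counted as genes. Of 891 summits outside genes, 621 lay within 500 bp of a start and were left out. The other optimal peaks serve as the comparison, and consist of 1224 promoter peaks within 500 bp of a start and 926 peaks inside genes and farther away.

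Crc is the fly counterpart of mammalian ATF4, a basic leucine zipper protein that activates genes of amino acid supply and translation control when cells are stressed. In mammals ATF4 pairs with C/EBP proteins on composite C/EBP-ATF response elements (CARE), and in flies Crc is also needed at the ecdysone-driven moults. DNA between genes holds distal enhancers, which drive genes in particular tissues, as well as insulators and Polycomb response elements. Its start sites include those of noncoding RNAs and unannotated promoters. A ChIP-seq peak there shows enrichment at a place and names no target gene.

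The flies, of the strain crc-MiMIC-GFP, carry an eGFP exon within an intron of the endogenous crc gene, so that Crc is made as a fusion to GFP under its own promoter. Whole embryos of mixed sex, collected from 0 to 24 hours, were precipitated with an antibody to GFP. There is 1 group with 2 biological replicates, and both carry the tag. The authors called peaks against a control that was not analysed here, and no library from untagged embryos was used here. The design therefore holds no comparison between conditions. Chromatin of every embryonic tissue was mixed, so a weaker peak and a peak in fewer cells cannot be told apart. The read depth was not stated.

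The 3 strongest of the intergenic peaks for which sequence is shown lay upstream of tara, eEF1gamma and chinmo. The gene tara encodes a cofactor tied to the Trithorax group and the cell cycle, eEF1gamma a subunit of a translation elongation factor, and chinmo a BTB zinc finger protein of neural temporal identity. Each line below gives 60 bases to either side of the summit in the Release 6 genome of RefSeq, and shows what the DNA at the top of a strong peak looks like. Capitals mark any match, on either strand, to GAGAG (the GAGA factor word) or CAGTG, a word taken up below. No stretch held a match to the CARE words or to TGACG, the core of the cyclic AMP response element (CRE).
tara (chr3R:16222422-16222542, plus strand): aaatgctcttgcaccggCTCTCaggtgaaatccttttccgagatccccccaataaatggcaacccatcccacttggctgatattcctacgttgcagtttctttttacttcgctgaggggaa
eEF1gamma (chr3R:29214380-29214500, plus strand): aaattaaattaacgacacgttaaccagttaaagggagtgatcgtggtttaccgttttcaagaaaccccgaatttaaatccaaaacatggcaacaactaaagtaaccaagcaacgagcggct
chinmo (chr2L:1632792-1632912, plus strand): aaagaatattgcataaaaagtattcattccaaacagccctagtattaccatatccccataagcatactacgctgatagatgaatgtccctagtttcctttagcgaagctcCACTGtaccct

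The CAGTG word came up again beside many other summits, strong and weak, often after a run of T and C and at times followed by TA. It lay within 100 bp of the summit at 140 members (51.9%), against 49.1% of all optimal peaks and 54.3% of those inside genes. CAGTG is thus not particular to the members. CAGTGTA lay there at 36 members (13.3%), against 7.73% of all optimal peaks and 9.9% of those inside genes. The next sequences are those of the 6 strongest members, outside 1 chromosome arm that is not printed, with the word CAGTGTA within 100 bp of the summit. Each is read along the strand that carries the word, which stands in capitals. The members lay near CG3149, the cuticle protein gene Cpr76Ba, the forkhead gene slp2, the zinc finger gene noc, CG43401 and Ttc30.
CG3149 (chrX:5696578-5696608, plus strand): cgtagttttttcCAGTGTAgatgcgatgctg
Cpr76Ba (chr3L:19516797-19516827, minus strand): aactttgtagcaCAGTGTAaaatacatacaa
slp2 (chr2L:3832574-3832604, plus strand): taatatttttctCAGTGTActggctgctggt
noc (chr2L:14502690-14502720, minus strand): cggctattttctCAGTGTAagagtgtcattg
CG43401 (chr2L:1433968-1433998, plus strand): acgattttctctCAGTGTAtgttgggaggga
Ttc30 (chr2L:13083887-13083917, plus strand): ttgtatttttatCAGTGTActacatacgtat
The longer word TCTCAGTG lay within 100 bp of the summit at 19 members (7.04%), against 3.55% of all optimal peaks. Shown next are 3 of them that are not printed above, near CheA75a, CG4218 and the cell cycle regulator rux.
CheA75a (chr3L:18236091-18236122, plus strand): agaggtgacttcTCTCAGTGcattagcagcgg
CG4218 (chr2L:14554141-14554172, plus strand): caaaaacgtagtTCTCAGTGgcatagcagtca
rux (chrX:6031818-6031849, minus strand): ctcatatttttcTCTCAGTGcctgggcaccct
CAGTG and both of its longer forms were picked after the windows of these peaks had been read, so their share at the summits is a description.

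A CARE match, by contrast, was rare. The words TGATGNAAT and TGATGNAAC, searched on both strands within 100 bp of the summit, occurred at 3 of the 270 members (1.11%, 95% Wilson interval 0.379 to 3.22). The share was 1.85% in 540 windows of the same size centred 1 kb to either side, and 1.32% over all optimal peaks. The members near Gr93a, a gustatory receptor gene, and near CG42831 are shown with the match in capitals, and the third lay 677 bp upstream of the zinc finger gene chn.
Gr93a (chr3R:21828391-21828421, minus strand): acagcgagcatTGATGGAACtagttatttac
CG42831 (chr3L:10822702-10822732, minus strand): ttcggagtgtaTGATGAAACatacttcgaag

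The signal of a peak is the value that the authors' peak caller gave it, in units whose normalisation was not stated. Intergenic peaks ranged from 63.98 to 744.2 in the pooled data, with a median of 90.6 (95% order-statistic interval 84.6 to 97.5). The median was 100.6 (97.5 to 105.2) for promoter peaks, 94.3 (91.6 to 97.6) for peaks inside genes and 96.9 for all optimal peaks, and the ratio of the intergenic median to that of all was 0.934. The lower end is set by the list, since being optimal amounts to a threshold on the pooled signal. Over all classes the weakest optimal peak had 63.98 and the strongest candidate that was not optimal 63.96. Of the 25 strongest optimal peaks 2 were members, and of the 100 strongest 8, while members made up 11.2% of the whole list. There were 25 members above 200, and 106 of the 270 lay below 80. The lower and upper quartiles were 73.6 and 135.3 for the members, against 75.9 and 142.0 for all optimal peaks. All intervals here and below cover counting error over peaks and not the spread between embryos.

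The strongest member lay at chr2R:13035182-13035494, in the 36783 bp between Su(z)2 and CG13323. Su(z)2 encodes a RING finger protein of Polycomb repressive complex type. The peak had 282.5 in replicate 1 and 459.5 in replicate 2, holding rank 13 and rank 10 among the candidates of these libraries. The summit was 27420 bp from the body of Su(z)2, with the start of CG13323 the closest at 11925 bp. A weaker pair shared the interval, with pooled signals of 72.0 and 66.7.

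The peak 3169 bp upstream of tara (chr3R:16222342-16222630) followed, at 559.1 in the pool; replicate 1 gave 214.2 and replicate 2 gave 343.4. The peak upstream of eEF1gamma (chr3R:29214259-29214588) had 526.8 in the pool, 214.3 in replicate 1 and 314.4 in replicate 2. It was 5732 bp from that start and 122 bp from the start of the noncoding RNA lncRNA:CR31044. The peak between blw and the mitotic cyclin gene CycB reached 452.5, with 178.9 and 265.8 in replicates 1 and 2. At each of these 4 peaks replicate 2 had the higher value, and the rank in either library was 46 or better.

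Several of the members that followed had pooled signals above 300. The peak 1222 bp upstream of stck, which encodes an adaptor of integrin adhesions, had signals of 126.2 and 203.3 in replicates 1 and 2. The peak beside CG14762 lay in the 17527 bp shared with Optix, a homeobox gene of the head and eye, and had 158.5 and 154.3. The peak 746 bp upstream of jp, the fly junctophilin gene, had 138.2 and 168.6. These were high in both libraries, and CG14762 was the 1 of the 3 at which replicate 1 was not the lower.

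Act5C, a cytoplasmic actin gene, had a member 645 bp upstream with signals of 107.2 and 152.8, which stood 227 bp from the start of lncRNA:CR45668. The Ras regulator gene RasGAP1 had a pair of members 199 bp apart, with pooled signals of 252.2 and 162.0, whose intervals overlap. The remaining members of the top 25 lay near sp3 (352.9), CG31668 (303.6), CG3149 (285.0), CG13896 (273.0), CG43131 (257.2), Cpr76Ba (227.2), CG43245 (221.8), the ligase gene DNAlig3 (220.4) and CG5953 (208.2), besides those described with their loci below. All had a candidate in each replicate. The CG5953 summit is listed 1 base beyond the end of its peak, the 1 such member.

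**Figure D1:**
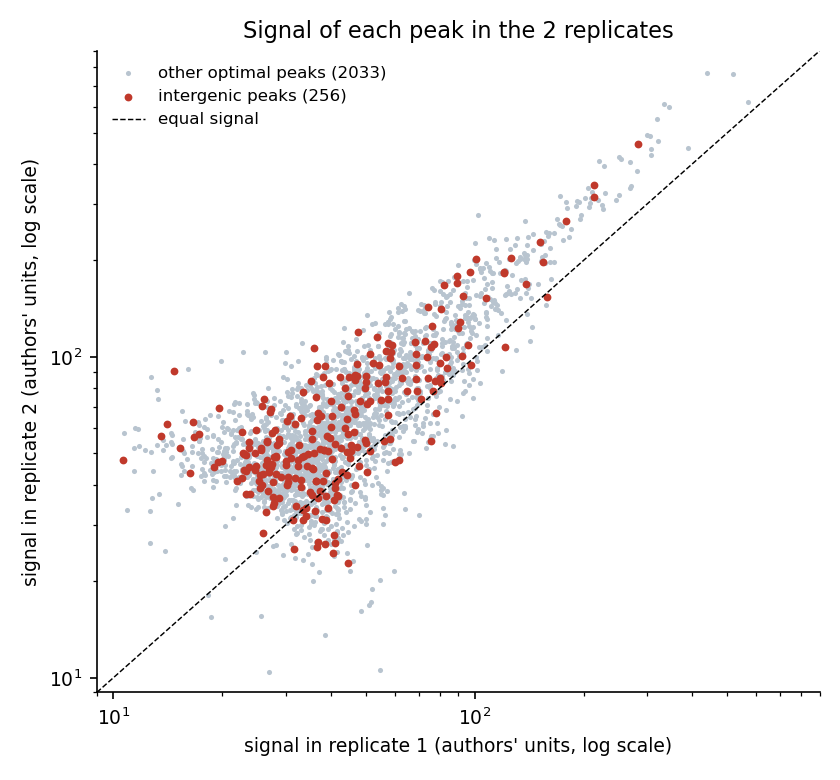
Signal of each optimal peak in replicate 1 (x axis) and replicate 2 (y axis), in the authors' units on log axes. Red points are the 256 intergenic peaks with a candidate in both replicates, grey points the 2033 other optimal peaks, and the dashed line marks equal signal. Most red points lie above the line, as 217 of 256 had the higher value in replicate 2, and their highest values, 282.5 and 459.5, lie below the highest grey ones, 571.3 and 765.1.

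Most members were found in each library when it was called alone. A candidate summit lay within 100 bp in replicate 1 for 260 members (96.3%) and in replicate 2 for 266 (98.5%), against 96.6% and 97.9% of all optimal peaks. Both libraries had a candidate for 256 members (94.8%, 91.5 to 96.9), against 94.6% of all. Candidate lists reach far into background, so a stricter count asks for a place among the 2420 strongest of each replicate. That was met by 170 members (63.0%, 57.1 to 68.5), against 66.5% of all. Neither share differed from that of all peaks by more than its interval. The pooled list was built from the same reads, so these counts are not independent of the choice of peaks.

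Values in replicate 2 were mostly the higher. Over the 256 members with both values, 217 (84.8%) were higher in replicate 2, against 86.6% over all optimal peaks, and the median ratio was 1.49 against 1.47. Median signals were 38.5 in replicate 1 and 54.6 in replicate 2. Spearman's rho between the replicates was 0.632 across these 256 peaks, given as a description since peaks of the same libraries share their depth. The cause of the shift between libraries was not tested.

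Of 14 members without a candidate in both libraries, 10 lacked one in replicate 1 and 4 in replicate 2. The strongest was the peak 758 bp from CG32573, with a pooled signal of 105.1, a replicate 2 signal of 103.1 and no replicate 1 candidate within 100 bp. The members that lacked a replicate 2 candidate lay near ex (74.3), SERCA (67.0), CG13898 (65.6) and kon (64.3), all close to the lower end of the list. Of the 14, 10 were among the 92 members within 2 kb of a start and 4 among the 178 farther away. These genes were chosen for naming after their values had been seen.

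Being optimal was less common for intergenic candidates than for the pooled candidates as a whole. Of 4178 intergenic candidates 270 were optimal (6.46%, 5.76 to 7.25), against 9.93% of all 24369. The share was 18.04% (17.14 to 18.97) at promoters and 6.91% (6.49 to 7.35) inside genes, so the intervals of the intergenic and inside-gene shares overlap. By distance it was 9.63% (7.25 to 12.7) from 501 to 1000 bp, 7.90% up to 2000 bp, 5.93% up to 5000 bp and 4.73% (3.54 to 6.29) up to 10000 bp. It was 7.62% (5.90 to 9.79) from there to 20000 bp and 3.50% (1.97 to 6.16) beyond. The intervals of neighbouring distance classes overlap, and the share was highest nearest to a start and lowest beyond 20 kb. The 3908 other intergenic candidates had a median signal of 23.9.

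**Figure D2:**
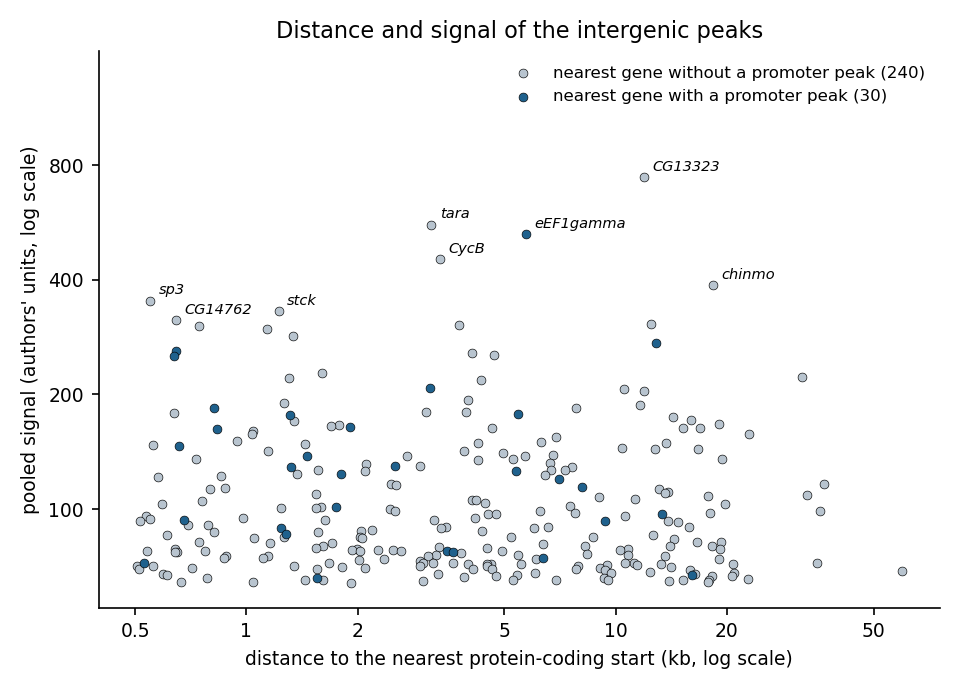
Pooled signal (y axis, authors' units, log scale) against distance to the nearest protein-coding start (x axis, kb, log scale) for the 270 intergenic peaks. Blue points are the 30 whose nearest gene also has a promoter peak, grey points the other 240, and names give the nearest gene of the strongest. Signals above 300 occur from 549 bp (sp3) to 18406 bp (chinmo).

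Distances to the nearest protein-coding start ran from 505 to 59523 bp, with a median of 3907 bp (3134 to 4501). There were 92 members within 2 kb, 66 beyond 10 kb and 11 beyond 20 kb. Signal showed no steady change with distance: the median was 93.3 for the 44 members from 501 to 1000 bp, 100.5 for the next 48 up to 2000 bp, and 92.2 for the 55 between 10001 and 20000 bp. It was 72.2 for the 11 beyond 20 kb. The nearest start belonged to a gene pointing away from the peak, with the peak upstream, in 174 members (64.4%), and the peak was downstream of that start in 96. This share was not set against that of intergenic candidates or of DNA between genes, so it describes the members only.

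The flanking protein-coding genes were divergent at 93 members, tandem at 119 and convergent at 58, counts that likewise have no comparison here. At a convergent member the summit lies beyond the ends of both genes. The intervals had a median length of 15363.5 bp and ranged from 377 to 512909 bp. Together the members occupied 203 intervals and had 377 flanking genes, 2.70% of the 13945 annotated protein-coding genes. A single member lay in an annotated transposable element, near ed (135.0), a gene named after its value had been seen.

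The 3 members just inside the 500 bp limit lay 505 bp from CG8468, 511 bp from CG15822 and 514 bp from the splicing regulator gene mbl, with pooled signals of 70.6, 69.4 and 93.1. The 3 summits just outside it lay 499 bp from E(spl)m3-HLH, a Notch target gene, 493 bp from CG10479 and 490 bp from Asator, with 175.8, 188.7 and 82.2.

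The member farthest from a start lay between Cyp12e1 and the homeobox gene hth, 59523 bp from the start of Cyp12e1 and 13249 bp from the annotated end of hth. Its signals were 23.04 and 44.3 in replicates 1 and 2. Next were a member 36662 bp from CG43245 (33.5 and 77.9), a member between CG31797 and the Wnt receptor gene drl (36.5 and 63.5), a member 35117 bp from CG43198 (39.2 and 33.7) and a member 32906 bp from corto (49.6 and 55.1), which encodes a partner of Polycomb and Trithorax proteins. All 5 had a candidate in both libraries, as did 10 of the 11 members beyond 20 kb. The corto member lay 68 bp from the start of lncRNA:CR45588.

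A start of a noncoding gene lay within 500 bp of 18 members, of which 16 were annotated as noncoding RNA, 1 as a snoRNA and 1 as a tRNA. Besides those near eEF1gamma, Act5C and corto, the member near DIP1 (78.9; 37.2 and 38.3 in replicates 1 and 2) lay 196 bp from lncRNA:flam, the precursor of the flamenco piRNA cluster, which silences transposons in the ovary. The member near Boot (147.5) lay 55 bp from Uhg4, a host gene of small nucleolar RNAs. The member upstream of nej, the CBP acetyltransferase gene (146.1), lay 465 bp from lncRNA:CR42657. The members near DIP1, Boot and nej were chosen for naming after their values had been seen. Without these 18, 252 members remained. The count of 18 was not set beside a share of other optimal peaks or of intergenic candidates, so it describes the members only.

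**Figure D3:**
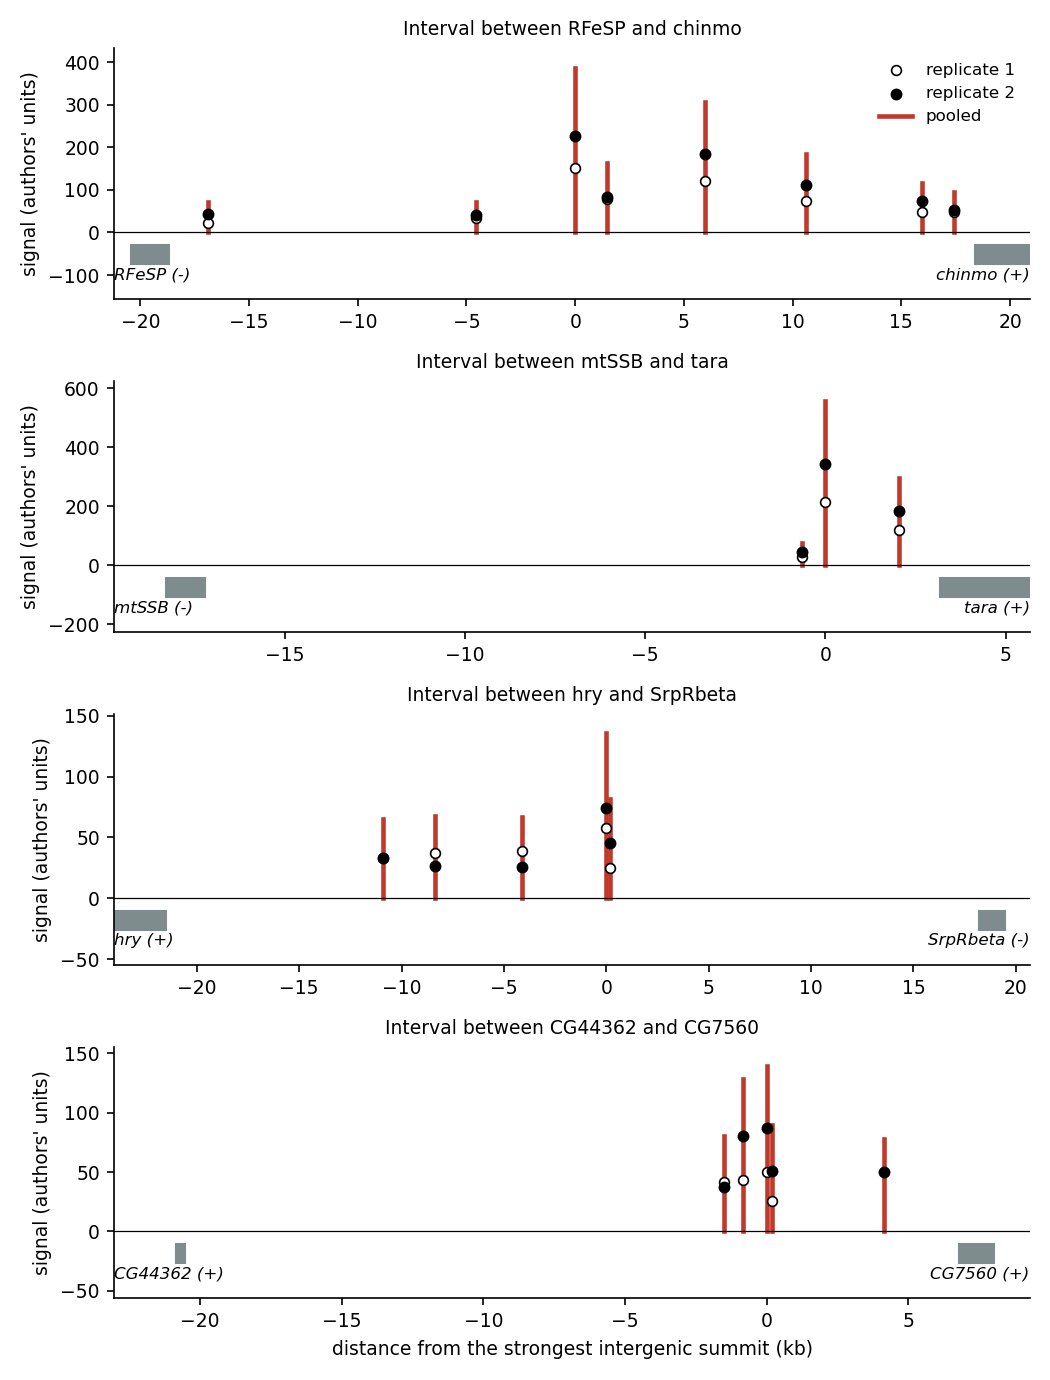
Intergenic peaks in 4 intervals, at their distance from the strongest of them (x axis, kb). Red lines show the pooled signal (y axis, authors' units), open circles replicate 1, filled circles replicate 2, and grey boxes the ends of the flanking genes with their strand. The strongest of the 8 peaks of the RFeSP to chinmo interval and of the 3 upstream of tara reach higher than any of the 5 in either interval below them.

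Members lay in groups at several loci. Linking summits up to 5 kb apart gave 30 clusters of 2 or more with 77 members (28.5%, 23.5 to 34.2), while 193 members stood alone. Another optimal summit of any class lay within 5 kb of 107 members (39.6%), against 39.6% of all optimal peaks, so the share near another peak was that of the whole list. Some neighbours are parts of the same stretch: 10 members had an interval that overlaps another member, and 26.0% of the 265 stretches left after joining these were in clusters. There were 11 clusters of at least 3 members, and 3 of 5.

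The interval of 37097 bp between RFeSP, a gene of mitochondrial complex III, and chinmo held 8 members, the most of any. Its strongest (chr2L:1632709-1632939), 18406 bp upstream of chinmo, had 387.1 in the pool, 151.9 in replicate 1 and 227.4 in replicate 2. The next, 12456 bp upstream, had 305.5 in the pool, 120.7 in replicate 1 and 184.5 in replicate 2. Towards the gene the pooled signals were 184.5 at 7800 bp, 116.3 at 2464 bp and 94.9 at 979 bp. The highest values thus stood toward the middle of the interval, and no promoter peak at chinmo was among the optimal ones.

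Upstream of tara the 3 members lay within 2681 bp. Beside the strong peak, the one 1140 bp upstream had 120.4 in replicate 1 and 183.0 in replicate 2, and the one 3821 bp upstream had 27.3 and 45.4. They fill a small part of the 20400 bp between mtSSB, a mitochondrial single-stranded DNA binding protein gene, and tara.

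The 5 members between hry, the pair-rule repressor gene hairy, and SrpRbeta, a subunit gene of the signal recognition particle receptor, spanned 11095 bp beyond the annotated end of hry. Their pooled signals ran from 64.8 to 135.4, and 2 of them, 203 bp apart, overlap. Replicate 1 was the higher at 3 of the 5, all those nearest hry, unlike most of the members. The 5 members 2628 to 8276 bp upstream of CG7560 had pooled signals from 77.6 to 138.9, and the one nearest the gene had no replicate 1 candidate.

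There were 7 further clusters of 3 members. The cluster between COX7AL2 and CG31668 reached 303.6, and the one between CG13896 and hng3 reached 273.0. The cluster between CG7484 and Crtc, a CREB coactivator gene, reached 193.4, the one between CG6168 and CG6163 188.2, and the one between RYBP, a gene of a Polycomb complex subunit, and the F-box gene Ppa 149.8. The cluster between CG4218 and CG3473 reached 140.2. The last, on both sides of the opsin gene Rh5 and bounded by Hacd1 and Wdr81, reached 130.0.

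The nearest gene had an optimal promoter peak of its own at 30 members (11.1%, 7.90 to 15.4). That share is close to the 11.5% of all protein-coding genes with such a peak, 1605 of 13945, which lies within its interval. The first is a share of peaks and the second a share of genes, and a gene such as RasGAP1 is nearest to a pair of the 30 members. For the peaks inside genes the share of peaks was 27.6% (24.9 to 30.6), an interval that does not overlap that of the members. Peaks inside genes lay nearer to a start, with a median of 2556.5 bp, and the part of distance in this difference was not tested. The 30 members had a median signal of 124.7 and a median distance of 1855.5 bp, against 88.0 and 4105.5 bp for the other 240. Either flanking gene had a promoter peak at 58 members and both at 9. Strong members of this kind lay near eEF1gamma (526.8), CG13896 (273.0), Act5C (260.4) and RasGAP1 (252.2), whereas tara, chinmo, stck and CycB had no optimal promoter peak. Another optimal summit, not a member, lay 202 bp from that of Act5C, and whether both belong to the same stretch was not tested.

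Genes of 13 lists were then looked up among the 377 flanking genes, which are 2.70% of all protein-coding genes. The lists were chosen with earlier results of these data known, so the counts are a description. Of 24 Polycomb and insulator genes 4 flanked a member, and these were the RING finger genes Su(z)2 and Psc and the duplicated Polycomb group genes ph-d and ph-p. Psc had a member 7765 bp beyond its end, beside CG13321, with signals of 82.2 and 167.4 in replicates 1 and 2, and another 4236 bp upstream with 51.3 and 101.8. Su(z)2 and Psc lie close together on the chromosome, and ph-d and ph-p share a single member (27.4 and 57.8). The 4 genes therefore stand for 2 loci.

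Of 24 segmentation genes 4 flanked a member. The member between the forkhead genes slp1 and slp2 had 74.3 in replicate 1 and 142.6 in replicate 2, and lay 4319 bp upstream of slp2. The member 5276 bp upstream of ptc, the Hedgehog receptor gene, had 46.6 and 87.8, and hry is described above. Of 8 Hox genes, abd-A flanked 2 members, which lay beyond its end toward the transporter gene Glut3. The stronger had 76.3 and 124.9 in the replicates, and the weaker 32.1 and 34.3.

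Of 26 neural identity genes 3 flanked a member: noc, SoxN and hth. The gene noc had 4, of which the strongest, 11940 bp from its start, had 95.8 in replicate 1 and 109.3 in replicate 2, and the SoxN member had 38.8 and 43.6. Of 17 mesoderm and muscle genes, bin, a forkhead gene of visceral mesoderm, flanked a member with 37.9 and 31.3. Of 29 ligand genes upd1 and upd3, cytokine-like activators of JAK/STAT, shared a member with 26.6 and 54.6, and vn, an EGF receptor ligand gene, had one with 33.0 and 39.3. Of 22 receptor genes ptc and the axon guidance gene robo2 flanked a member, and the stronger of 2 beside robo2 had 56.2 and 54.7. The members beside SoxN, hth, bin, upd1 and vn had pooled signals below the median of all members.

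Of 24 genes of the stress response and of ATF4 biology 3 flanked a member. The member 1909 bp upstream of Atf3, a bZIP gene, had 58.7 in replicate 1 and 103.3 in replicate 2. Upstream of foxo, the transcription factor gene held in check by insulin signalling, 2 members had 80.3 and 86.2, and 38.8 and 36.8. Beyond the end of scyl, whose product restrains TOR, 2 members had 58.1 and 55.4, and 23.3 and 49.5. Atf3 and scyl also had an optimal promoter peak, and foxo had none. A member 1323 bp upstream of Sesn, the sestrin gene, had 46.6 and 84.6. It was not counted for the list because CG46429 is annotated with the same start, and was named after its value had been seen.

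None of 13 genes of amino acid and one-carbon synthesis and none of 11 GATA factor and haemocyte genes flanked a member, and neither crc nor ush was a flanking gene. Of 93 cytosolic ribosomal protein genes RpS23 and RpLP0 flanked a member (70.6 and 70.1 in the pool). Hr51 was the 1 of 20 ecdysone response genes, sharing a member (184.2) with the netrin receptor gene unc-5, and foxo the 1 of 22 insulin and TOR genes. A share of these lists is read against the 2.70% of all protein-coding genes that flank a member. Interval length differs between genes, and its part in these shares was not tested.

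The share of members among the optimal peaks differed between the arms. They made up 14.7% (11.7 to 18.2) of the optimal peaks on 2L and 15.3% (12.4 to 18.7) of those on 3L, but 7.83% (5.71 to 10.6) on X, 8.04% (6.08 to 10.6) on 3R, and 42 of 420 (7.48 to 13.2) on 2R. In number they were 67 on 2L, 77 on 3L, 36 on X, 46 on 3R, 42 on 2R and 2 on chromosome 4. The intervals of 2L and 3L lie above those of X and 3R. They count each peak as independent, although the DNA between RFeSP and chinmo on 2L held 8 members. That between hry and SrpRbeta on 3L held 5. The arm shares were not set against those of intergenic candidates or of DNA between genes, so they describe the members only.

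**Figure D4:**
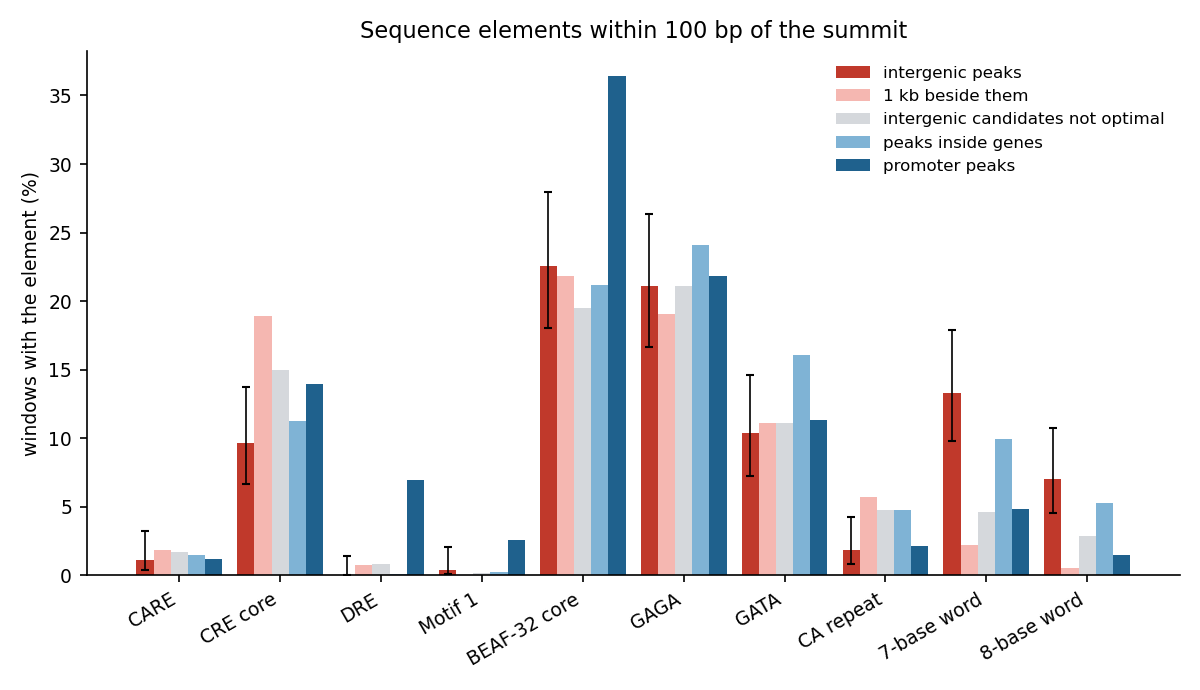
Share of windows of 100 bp to either side of the summit that hold each element on either strand (y axis, percent). Red bars are the 270 intergenic peaks with 95% Wilson intervals, and the other bars are windows 1 kb beside them, intergenic candidates that are not optimal, peaks inside genes and promoter peaks. The DRE is at 0 in the intergenic peaks and at 6.94% in promoter peaks. The 7-base and 8-base words CAGTGTA and TCTCAGTG are highest in the intergenic peaks, but their shares in peaks inside genes lie within the intergenic intervals.

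Core promoter elements of fly housekeeping genes were rare at the intergenic summits, as they were at peaks inside genes. The DNA replication-related element TATCGATA (DRE), bound by Dref, was in 0 of 270 windows, which allows a share of up to 1.11% by 3 counts of 270 and has a Wilson upper limit of 1.40%. It was in 3.55% of all optimal peaks, 6.94% of promoter peaks, 0.108% of peaks inside genes and 0.741% of the windows 1 kb away. Motif 1 (GGTCACACT) was in 1 window (0.370%), against 1.45% of all, 2.61% of promoter peaks, 0.216% of peaks inside genes and 0 of 540 windows 1 kb away. CGATA, the core of the BEAF-32 insulator site, which also lies inside the DRE, was in 61 windows (22.6%, 18.01 to 27.9), against 29.0% of all, 36.4% of promoter peaks and 21.2% of peaks inside genes. In the windows 1 kb away its share was 21.9%, within the interval at the summits.

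Of the words of bZIP proteins, TGACG was less frequent at the summits than 1 kb away, and the longer ones were rare. TGACG was in 26 windows (9.63%, 6.66 to 13.7), against 12.4% of all optimal peaks and 18.9% of the windows 1 kb away. For all optimal peaks the share 1 kb away was 18.5%, so the lower share at summits was not particular to the members. The whole CRE, TGACGTCA, which holds TGACG, was in 0 windows, with the same upper limits, against 0.455% of all. The AP-1 words TGACTCA and TGAGTCA were in 3 windows (1.11%) against 1.82%, and the C/EBP word TTGCGCAA in 1 (0.370%) against 0.248%. GC content moved with this: its median was 36.3% at the summits and 41.3% in the windows beside them. Over all optimal peaks these medians were 35.8% and 42.3%. The part of GC content in the shares was not tested.

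The GAGA word was in 57 windows (21.1%) against 22.6% of all optimal peaks and 19.1% of the windows beside. The GATA word AGATAA was in 28 (10.4%) against 13.1% and 11.1%. The E-box CACGTG was in 7 (2.59%) against 2.40% of all, and the Zelda word CAGGTAG, of the early zygotic activator, in 5 (1.85%) against 0.950%. The repeat CACACACA was in 5 (1.85%, 0.794 to 4.26), against 3.10% of all and 5.74% of the windows beside. Of these only the repeat had a share beside the summits outside its interval at the summits. For all optimal peaks the share of the repeat beside the summits was 5.21%, so it was lower at those summits too.

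**Figure D5:**
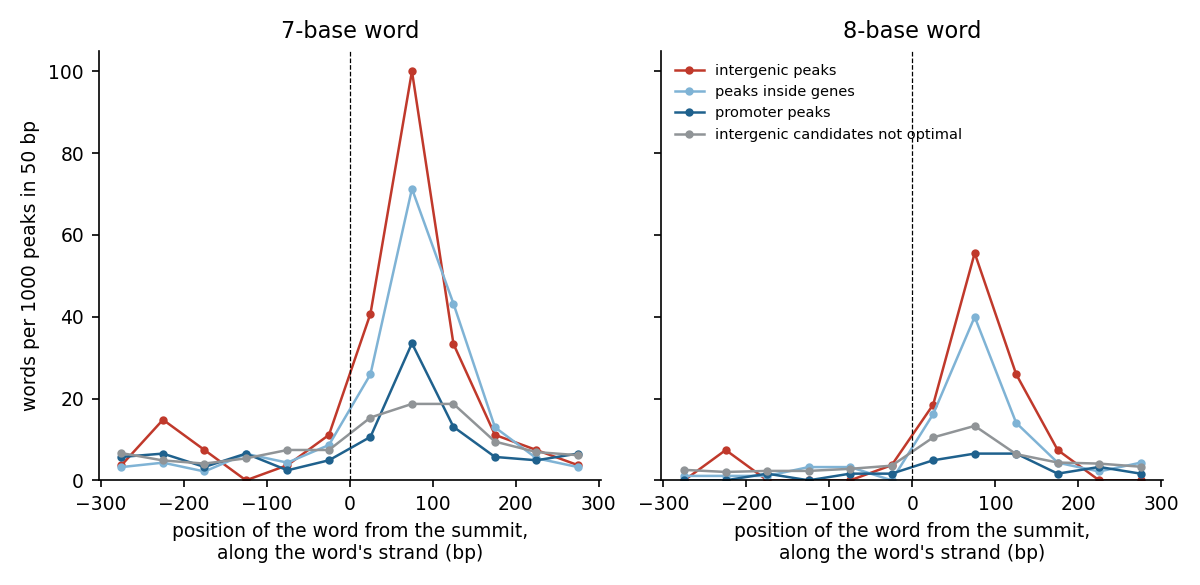
Number of matches to the words CAGTGTA (left) and TCTCAGTG (right) per 1000 peaks in bins of 50 bp (y axis), by position from the summit along the strand that carries the word (x axis, bp). Red is the 270 intergenic peaks, light blue the peaks inside genes, dark blue the promoter peaks and grey the intergenic candidates that are not optimal. The red line peaks between 50 and 100 bp after the summit, with 27 and 15 words, and is low before it.

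CAGTG and its longer forms were more frequent at the summits than 1 kb away. CAGTG was in 140 windows (51.9%, 45.9 to 57.7), against 49.1% of all optimal peaks, 54.3% of peaks inside genes, 35.8% of the intergenic candidates that were not optimal and 28.7% of the windows 1 kb away. CAGTGTA, which contains it, was in 36 (13.3%, 9.79 to 17.9), against 7.73% of all, 9.94% of peaks inside genes, 4.82% of promoter peaks and 2.22% of the windows 1 kb away. TCTCAGTG, which also contains CAGTG, was in 19 (7.04%, 4.55 to 10.7), against 3.55% of all, 5.29% of peaks inside genes and 0.556% beside. For all 3 words the share inside genes lay within the interval of the intergenic peaks. In the intergenic candidates that were not optimal CAGTGTA was in 4.63% of windows and TCTCAGTG in 2.87%. The median signal was 87.1 with CAGTGTA and 92.5 without.

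The position of the words was one-sided in every class of peaks. Whether the words mark binding by Crc or DNA that is enriched for another reason was not tested. Read along the strand that carries it, CAGTGTA occurred 47 times in the 150 bp after the intergenic summits and 4 times in the 150 bp before them, with a median offset of 72.0 bp. TCTCAGTG occurred 27 times after and 1 time before. The other classes leaned the same way, with CAGTGTA 130 times after and 18 before at peaks inside genes, 70 and 17 at promoter peaks, and 205 and 79 at intergenic candidates that were not optimal. Of 195 CAGTG matches at the intergenic summits, 51.8% had at least 6 pyrimidines among the 8 bases before the word, as in the sequences of slp2, noc and CG43401, against 17.2% of 198 matches in the windows 1 kb away. The pyrimidine count was not a planned measure, so these shares too are a description.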

How the data were processed

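The authors deposited lists of peaks on dm6 (Release 6): candidates of either replicate, candidates of the pooled reads, and the optimal set left by the irreproducible discovery rate filter, per the labels. Each list holds a signal value per peak, deposited by the authors as their peak caller gave it. No aligner, caller or version is named, and depth was not given in the sources used, so none can be set beside a signal. Fragments were 200 to 800 bp after sonication, per the labels. Lists in the older dm3 coordinates were not used, and no coordinate was moved between builds.

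Summits were placed on the Ensembl BDGP6.54 annotation, release 115, with a start limit of 500 bp, and sequence was read from the RefSeq Release 6 genome. A replicate candidate matched within 100 bp of the summit, clusters linked summits up to 5 kb apart, and each element was looked for in the 100 bp to either side of a summit and in 2 windows centred 1 kb away. A gene was called promoter-bound with an optimal summit within 500 bp of any of its starts. Shares have 95% Wilson intervals and medians 95% order-statistic intervals, which cover counting error only. With 1 group there is no test between conditions. Genes were named as the nearest gene of the 25 strongest members and of the 5 farthest from a start, the genes flanking clusters of 3 or more members, up to 4 genes per list with the strongest member, and the 3 summits to each side of the limit. Genes named otherwise are marked or illustrate a sequence. The members, gene lists and elements were chosen with earlier results of these data known, and 6 list symbols were matched to their current annotated names. Steps were tested on simulated data. Alternatives were other start limits, all gene starts, the 1210 strongest peaks, the list of 1 replicate alone, whole peaks outside genes, and other matching, linking and window sizes. Python 3.11.15 was used with pandas 2.3.3, numpy 2.4.6, scipy 1.17.1 and matplotlib 3.10.9.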

Additional observations from a re-analysis of the deposited data

How the results depend on the processing

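Of 64 recomputed values 49 stayed within the interval of the reported value (for the number of members, within 1.5 times) and 15 did not. With a start limit of 200 bp there were 410 members, a median distance of 1358.5 bp and 41.5% with a promoter peak at the nearest gene, since summits 201 to 500 bp from a start then count both as members and as promoter peaks. A limit of 1000 bp gave a median distance of 4731 bp. Among the 1210 strongest optimal peaks there were 120 members, a ratio of medians of 1.01, 99.2% with a candidate in both replicates and 21.7% in clusters. Matching replicates within 50 bp gave 79.6% in both and within 200 bp 98.9%. Linking summits within 2 kb gave 17.8% in clusters and within 10 kb 36.7%. A promoter peak within 1000 bp gave 29.3%, as members 501 to 1000 bp from a start then count for their own gene. The share of CAGTGTA, whose alternatives were added after seeing the data, was 4.81% in windows of 50 bp to each side and 18.9% in windows of 200 bp. The list of either replicate alone, without the other, gave 267 members and a CARE share of 0.749% for replicate 2, and 260 members and 1.92% for replicate 1. No value for candidates in both replicates exists without a replicate. No paired analysis was possible because there is 1 group. Without read depth, the strength of a missing candidate cannot be bounded.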
